A study of Mus musculus with 14 samples.

Results

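The early response of mouse tibialis anterior muscle to follistatin was described from 7 of the series' 14 libraries, 4 labelled follistatin and 3 labelled control, all at day 3. Every gene with a mean of at least 1 FPKM (fragments mapped to a gene per kilobase of its transcript, relative to all fragments mapped in the library) over these 7 libraries was tested, apart from 4 whose level the authors' day 3 table marks as not estimated because of very high read numbers. This left 11268 of 24359 genes, and no measured change entered the choice. All 14 libraries held poly(A) RNA of tibialis anterior, the muscle at the front of the shin, from C57Bl/6 mice, and the other 7 came from days 7 and 14. The labels give the treatment as control or follistatin and nothing further, so the route and dose of follistatin, what the controls received, the age and sex of the mice, and whether replicates were separate animals are not known here. All p-values therefore measure only the spread between these libraries, which may be partly technical.

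Follistatin, released by many cells, captures activins and myostatin and keeps them from their receptors. These ligands act through type II and type I receptor kinases that phosphorylate Smad2 and Smad3, and in skeletal muscle they restrain fibre growth. When they are blocked, fibres enlarge, which calls on protein synthesis, on degradation by the ubiquitin and autophagy systems, on membrane and sarcomere building, and on fuel handling.

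The day 3 libraries were of similar make-up: their FPKM values summed to between 486377 and 532859, and between 15766 and 17161 genes lay above 0. Their depth is known only relative to control replicate 1, from the steps between low FPKM values, and ranged from 0.683 to 1.27 times that library. Markers of fast skeletal muscle dominated every library, with Tnnt3 (fast troponin T) at 17377 to 19818 FPKM and Pvalb (parvalbumin) at 8867 to 9997 FPKM, while the slow myosin Myh7 lay between 0.487 and 2.06 FPKM. Myh4, the myosin heavy chain of the fastest fibres, is among the 4 genes left out: it is listed at 0 in all 4 follistatin libraries and at 8989 to 10504 FPKM in the controls, and the authors' table marks it as not estimated, so its values were not compared. The other 3 left out for the same mark are Acta1, Atp2a1 and Rabep2.

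Fst, the follistatin gene itself (chr13:114452290-114458951 on the minus strand of GRCm38, the same build as mm10), was measured first as a check of the labels. It stood at 1.01, 1.12 and 1.42 FPKM in the controls and at 60.4, 49.7, 52.5 and 67.8 FPKM in the follistatin libraries. Every follistatin library lay far above every control, with means of 1.18 ± 0.212 FPKM (SD, n = 3) and 57.6 ± 8.16 FPKM (SD, n = 4), a 48.7-fold higher level (log2 fold change 4.74 ± 0.12 SE, adjusted p = 6.5e-07 by limma with Benjamini-Hochberg adjustment over all genes tested). A two-sided exact permutation test of this gene alone gave p = 0.0286, the smallest that 3 against 4 libraries allow.

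By the same limma test on log2(FPKM + 1), 168 genes (1.49% of those tested) passed an adjusted p of 0.05. Of these, 104 rose with follistatin (0.923% of genes tested) and 64 fell (0.568%). In all 168 the follistatin and control libraries did not overlap, against 936 genes (8.31%) whose follistatin libraries all lay above the controls and 766 (6.8%) whose follistatin libraries all lay below, called or not. Before adjustment, by which an unadjusted p under 0.05 is meant throughout, 983 genes were higher (8.72%) and 728 lower (6.46%), and the median log2 fold change of all genes tested was 0.01. That fold change was above 0 for 5926 of the 11268 genes tested. Most called changes were small: the median size was 0.66 on the log2 scale, and 31 genes changed by more than 1 on that scale, 18 up and 13 down. Fold changes in log2 refer to log2(FPKM + 1), which understates the change of genes with low FPKM.

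The number of calls rested on individual libraries. Without control replicate 1, 2 or 3 it was 39, 51 or 80, and without follistatin replicate 1, 2, 3 or 4 it was 105, 114, 123 or 165. In all 7 of these fits 34 genes passed, among them Fst, Asb2, Gadd45b, Stbd1, Irs1, Hspa5, Pdia6, Ulk1, Actc1, Mylk2, Tbc1d1 and Nos1. Leaving out 1285 small RNA genes, many of which are listed at 0 in some libraries and high in others, raised the count to 266, with 165 up and 101 down. A fit of all 14 libraries, in which both times share 1 estimate of the spread, called 127 genes at day 3. It ended the calls of 7 genes named below as passing in all 7 leave-one-out fits: Hspa5 (adjusted p = 0.112 by limma in that fit), Pdia6 (0.058), Actc1 (0.204), Hspb8 (0.166), Myf6 (0.078), Art1 (0.057) and Dupd1 (0.0559). Below, where a gene did not pass in all 7 fits, the highest adjusted p of the 7 is given with it or the number of fits it passed.

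**Figure D1:**
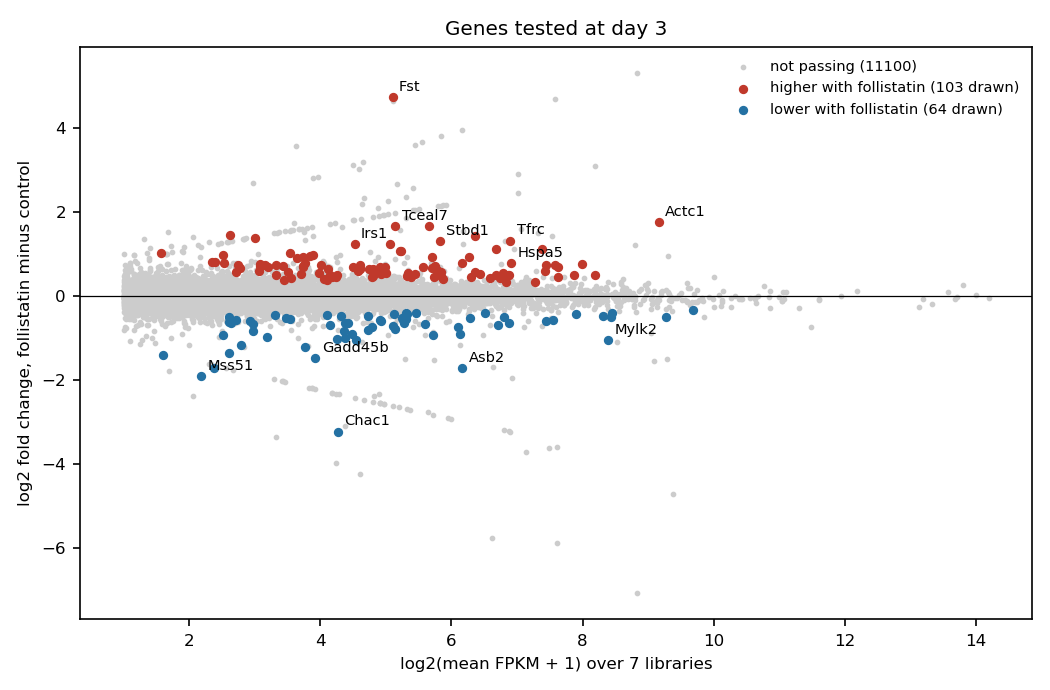
Each point is a gene tested at day 3, with the log2 of its mean FPKM + 1 over the 7 libraries on the x axis and its log2 fold change (follistatin minus control) on the y axis; red genes passed as higher, blue genes as lower, and grey genes did not pass. Fst stands highest among the called genes at 4.74, Chac1 lowest at -3.24, and most called genes lie within 1 of 0; Mir6935 is not drawn.

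The genes are described below by what they do, with 93 lists of pathway, sarcomere, metabolic and cell type genes that together held 1801 tested genes. Of the 168 called genes, 77 were on a list and 91 on none, and 44 lists had at least 1 called member. Reads of overlapping genes cannot be told apart here, since the strand setting is not given: among the genes named below with 1 annotated position this concerns Mybph with Adora1, Tceal7 with Bex1, Aimp2 with Eif2ak1, Irs1 with Gm9747, Sqstm1 with Mrnip, Golm1 with Naa35, Klhl21 with Gm9768, Ctsd with Gm49369, Car14 with Aph1a, Nmrk2 with Atcayos, Prkag2 with Prkag2os2, Mat2a with Particl, Art1 with Chrna10, Tuba4a with Stk16, Mb with Gm49540, Rpl5 with Fam69a, Tmx2 with Gm28635 and Hsp90b1 with 1810014B01Rik, each sharing over 10% of its exon bases.

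Among 16 tested genes of activin and myostatin signalling, Fst rose and 3 fell: the receptor Acvr1b, the latency protein Ltbp3 and the Smad repressor Skil. The other 12 did not pass, and the list's median log2 fold change was 0.06 (0.02 without control replicate 1). Acvr1b, also called ALK4, is a type I receptor through which activins signal, and it stood at 40.00, 33.7 and 31.02 FPKM in the controls and 18.5, 23.1, 21.5 and 18.4 FPKM with follistatin. The groups lay apart by several FPKM, a 1.71-fold lower mean (log2 fold change -0.75 ± 0.12, adjusted p = 0.0196, and up to 0.084 with 1 library left out). Skil encodes SnoN, which binds Smads, represses their targets and is itself switched on by this pathway. Its level was 6.94, 6.99 and 6.49 FPKM in the controls and 3.55, 4.12, 2.24 and 2.82 FPKM with follistatin. The controls were tightly grouped and the follistatin libraries spread over a wider range below them, with follistatin replicate 3 lowest; the mean was 2.14-fold lower (log2 fold change -0.92 ± 0.16, adjusted p = 0.0271, up to 0.121 with 1 library left out). Ltbp3, which tethers latent TGF-beta to the matrix, went from 12.4 ± 0.684 to 8.37 ± 0.484 FPKM (SD, n = 3 and 4), 1.48-fold lower (adjusted p = 0.0201, up to 0.109).

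Mstn, the gene for myostatin, did not pass: it was at 17.1, 16.3 and 18.05 FPKM in the controls and 37.9, 25.5, 26.1 and 23.5 FPKM with follistatin. All 4 follistatin values lay above the 3 controls, follistatin replicate 1 the farthest, and the difference was 0.67 ± 0.15 on the log2 scale with an adjusted p of 0.0811. The authors' own test of these libraries, Cuffdiff, called Mstn higher (q = 0.00191). Smad7, an inhibitory Smad (named after its values were seen), had means of 2.41 and 1.64 FPKM with an adjusted p of 0.429. No gene passed among 13 tested genes of TGF-beta ligands, latency and response (1 higher and 2 lower before adjustment) or among 14 of BMP signalling and the Id genes (1 higher and 0 lower).

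Further regulators of growth and signalling fell. Gadd45b, a growth arrest and stress gene, stood at 23.3, 22.2 and 23.3 FPKM in the controls and 7.49, 7.81, 6.91 and 8.195 FPKM with follistatin. Both groups were tight and far apart, 3.02-fold lower with follistatin (log2 fold change -1.48 ± 0.08, adjusted p = 0.00012), and the call held in all 7 leave-one-out fits; the other 22 tested genes of cell cycle arrest and p53 targets did not pass. Hes1, a repressor switched on by Notch, fell 1.92-fold, from 9.45 ± 1.49 to 4.93 ± 1.02 FPKM (adjusted p = 0.0405, up to 0.131), as the only one of 15 tested Notch genes to pass. Pde4b, which breaks down cyclic AMP, fell 1.91-fold to 15.4 ± 2.55 FPKM (adjusted p = 0.013, up to 0.0664), and it alone passed among 15 genes of cyclic AMP and adrenergic signalling. Tmem100, a transmembrane protein, went from 8.29 ± 0.562 to 2.74 ± 1.01 FPKM (3.03-fold lower, adjusted p = 0.0133, up to 0.0758). None passed among 16 Wnt genes or 19 genes of calcineurin, NFAT and Mef2, which had 2 and 4 members higher and 2 and 4 lower at an unadjusted p under 0.05.

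**Figure D2:**
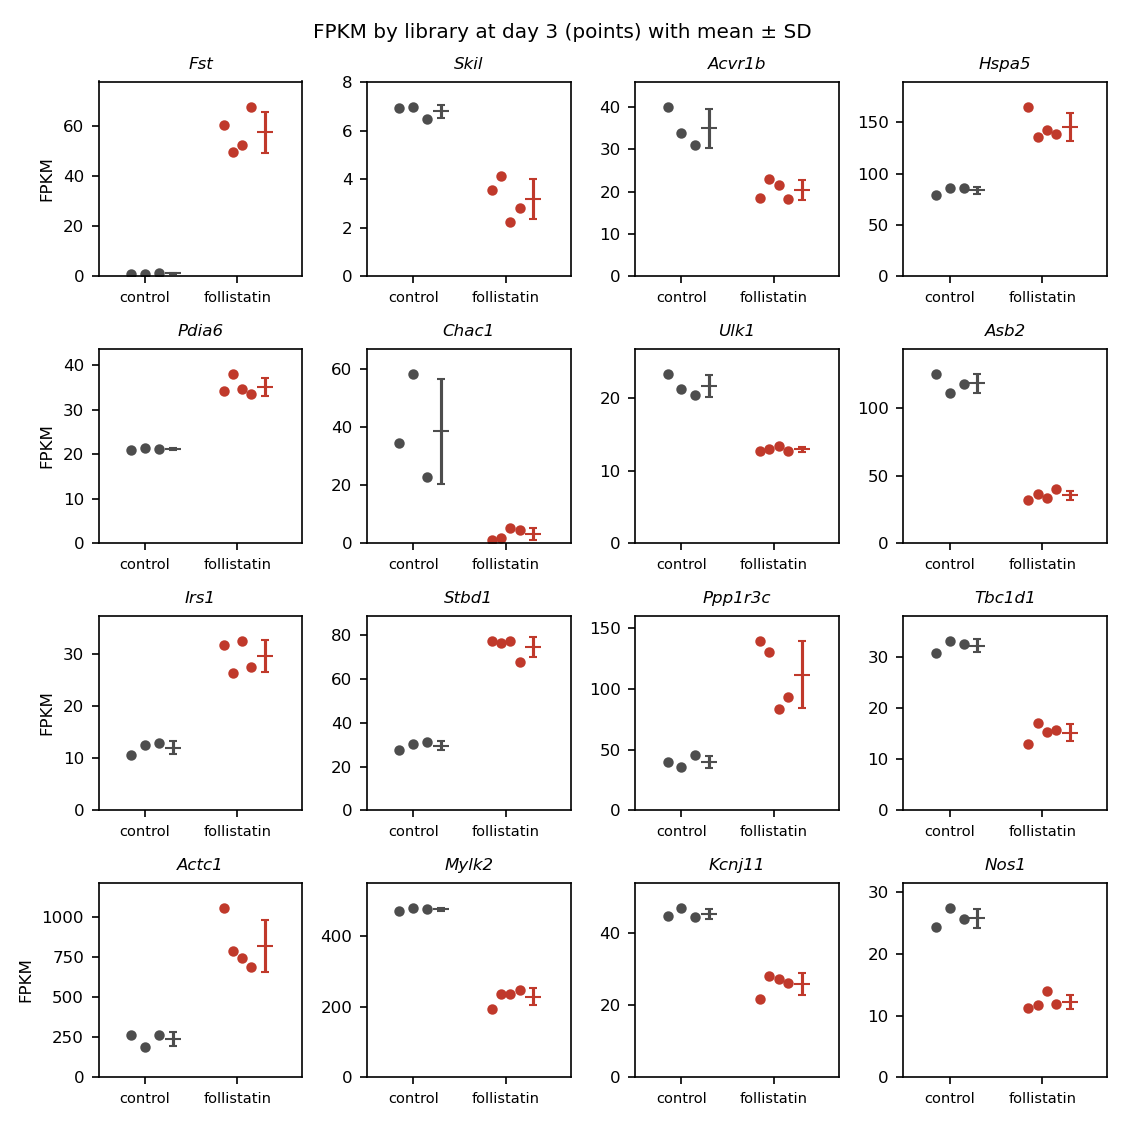
FPKM (y axis, from 0) of 16 genes in each day 3 library, with 3 control libraries in grey and 4 follistatin libraries in red as points and the mean ± SD beside them. The groups do not overlap for any of the 16; Fst goes from 1.18 to 57.6 FPKM and Chac1 from 38.5 to 3.27 FPKM on average, and the controls of Chac1 are the most spread.

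The genes that serve the secretory pathway were mostly higher with follistatin. This pathway passes new membrane and secreted proteins through a channel into the endoplasmic reticulum (ER), folds and glycosylates them there, and ships them to the Golgi. Of 84 tested genes in the lists of ER chaperones, of translocation and glycosylation, and of ER to Golgi transport, 6 rose and none fell by limma at an adjusted p under 0.05. At an unadjusted p under 0.05, 35 of the 84 (41.7%) were higher, beside 8.72% of all genes tested, and none was lower, beside 6.46%. Their log2 fold change was above 0 in 73 of 84, with a median of 0.19 beside 0.01 for all genes tested. These lists were chosen with earlier results of the same libraries known.

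Among 24 ER chaperones and folding enzymes, Hspa5, Pdia6 and Manf rose, 21 had a fold change above 0 and the median was 0.25. Hspa5 encodes BiP, the main Hsp70 chaperone of the ER, and was at 79.8, 85.8 and 86.00 FPKM in the controls and 165, 136, 142 and 139 FPKM with follistatin. The lowest follistatin library stood well above the highest control, a 1.73-fold rise (log2 fold change 0.78 ± 0.08, adjusted p = 0.00516) that held in all 7 leave-one-out fits. Pdia6, a protein disulfide isomerase, was at 20.9, 21.4 and 21.2 FPKM and 34.1, 37.99, 34.5 and 33.6 FPKM, a 1.66-fold rise over nearly identical controls (log2 fold change 0.70 ± 0.07, adjusted p = 0.00399), and it too passed in all 7 fits. Manf, a small ER-resident factor that binds BiP, rose 1.82-fold from 5.09 ± 0.568 to 9.27 ± 1.13 FPKM (adjusted p = 0.0181, up to 0.0747 with 1 library left out). Hsp90b1, the ER Hsp90, had means of 60.4 and 77.3 FPKM and did not pass (adjusted p = 0.0642), nor did Hyou1, an exchange factor for BiP, at 6.56 and 10.2 FPKM (adjusted p = 0.0671; both named after their values were seen).

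The promoters of these chaperones are shown because several carry the ER stress response element, a composite site at which such genes are known to be switched on. RefSeq promoter windows of GRCm38.p6, from 250 bases before to 50 bases after each start, were searched on both strands for its letters, CCAAT and CCACG with 9 bases of any kind between them. Of 32851 promoters, 0.119% hold it, and of the 24 tested chaperones 19 have a promoter in that table and 7 of these hold it: Hspa5, Pdia6, Hsp90b1, Calr, Canx, Dnajc3 and Creld2. Here and below, shares of all promoters count windows, while a gene counts once if any of its windows holds the letters. The shares of windows and of genes are therefore unlike measures. The windows below run 5′ to 3′ along the gene, with the element in capitals.
Hspa5 (chr2:34772004-34772064, plus strand): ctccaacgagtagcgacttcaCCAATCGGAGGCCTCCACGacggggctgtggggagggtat
Pdia6 (chr12:17266470-17266530, plus strand): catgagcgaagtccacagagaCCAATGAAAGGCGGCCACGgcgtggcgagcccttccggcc
Hsp90b1 (chr10:86705617-86705677, minus strand): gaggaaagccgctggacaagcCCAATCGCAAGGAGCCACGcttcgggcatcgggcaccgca
Dnajc3 (chr14:118937806-118937866, plus strand): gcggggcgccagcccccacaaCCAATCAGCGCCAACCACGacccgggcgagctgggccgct
In the first 2, whose genes rose, the element starts 65 and 98 bases before the RefSeq start. The latter 2 genes did not pass, with log2 fold changes of 0.35 ± 0.07 and 0.10 ± 0.08, so holding these letters did not separate called from uncalled chaperones. Calr, Canx and Creld2 were also not called, at 0.25, 0.25 and 0.27. Over all called genes with a promoter in the table, 2 of 76 that rose and 0 of 50 that fell hold the element.

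The channel and glycosylation list held 30 tested genes, of which Ssr3 passed, 27 were above 0 and 14 were higher at an unadjusted p under 0.05. Ssr3, a subunit of the complex beside the translocation channel, was at 90.4, 91.8 and 95.3 FPKM in the controls and 147, 126, 119 and 137 FPKM with follistatin. Follistatin replicate 3 came closest to the controls, and the rise was 1.43-fold (log2 fold change 0.51 ± 0.08, adjusted p = 0.0207, up to 0.107 with 1 library left out). Of 30 genes of ER to Golgi transport, Tmed9 and Sec23b rose, 25 were above 0 and 10 were higher at an unadjusted p under 0.05. Tmed9, a cargo receptor of the p24 family, was at 35.3, 37.6 and 41.1 FPKM and 57.9, 60.99, 66.1 and 60.3 FPKM, a 1.62-fold rise that held in all 7 fits (log2 fold change 0.68 ± 0.08, adjusted p = 0.00667). Sec23b, part of the coat of vesicles leaving the ER, rose 1.595-fold to 8.77 ± 0.906 FPKM (adjusted p = 0.0241, up to 0.112).

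Other called genes on none of these lists, named after their values were seen, sit in the same membranes. Ostc and Magt1, subunits of the enzyme that attaches N-linked sugars, rose 1.47-fold and 1.395-fold, and Alg2, which builds the sugar precursor, rose 1.401-fold. The thioredoxin-like membrane protein Tmx2, the ER sheet protein Ckap4, the Golgi protein Golm1 and the transport protein Ergic1 rose 1.45-fold, 1.98-fold, 1.71-fold and 1.34-fold. With 1 library left out, the highest adjusted p of these 7 lay between 0.0941 for Ostc and 0.173 for Alg2, so none passed in all 7 fits. Magt1 and Ergic1 passed in none of those fits.

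**Figure D3:**
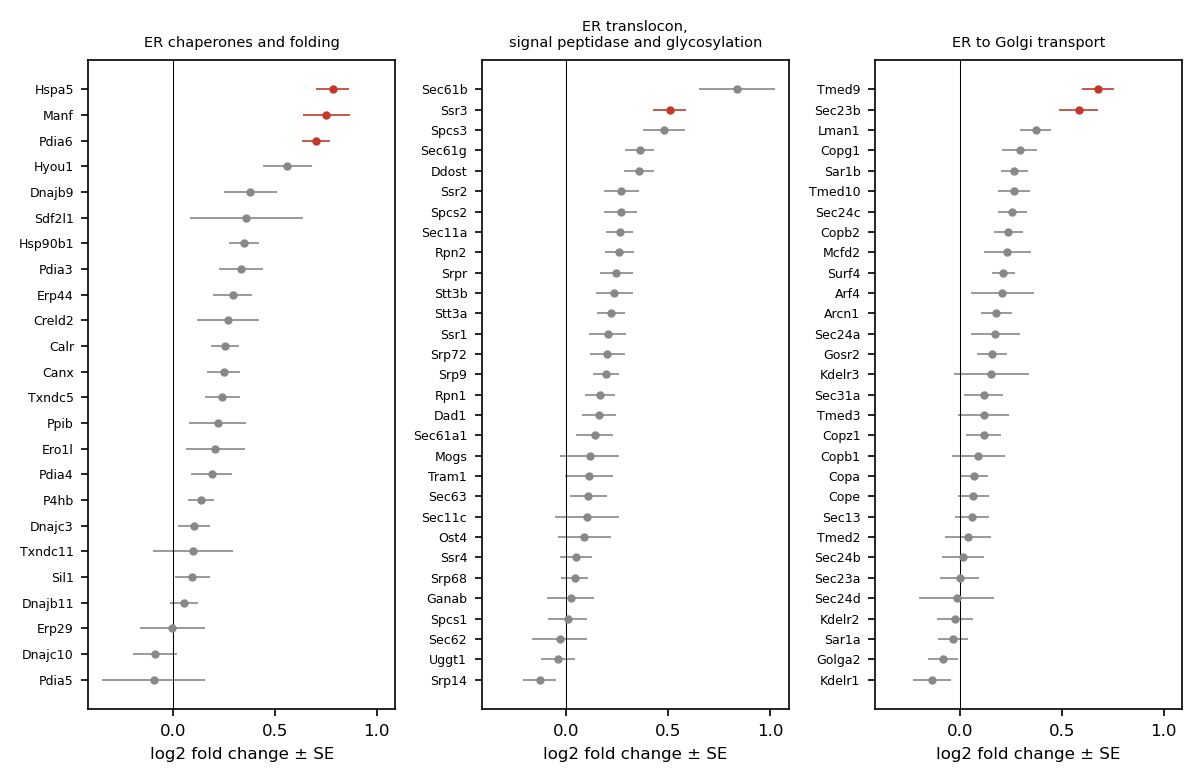
Log2 fold change (follistatin minus control, x axis) ± SE of every tested gene in 3 lists of the secretory pathway, each sorted by size; genes that passed are red and the others grey. Of the 84 genes 73 lie to the right of 0, and the 6 that passed are Hspa5, Manf, Pdia6, Ssr3, Tmed9 and Sec23b.

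The sensors and effectors of the unfolded protein response, which is known to raise such genes under ER stress, had 1 call. Of 16 tested, none rose and Chac1 fell; 11 were above 0, 4 were higher and 1 lower before adjustment, and the median was 0.11 (0.05 without control replicate 1). Chac1, an enzyme that breaks down glutathione and is known as a target of the stress factors ATF4 and CHOP, was at 34.4, 58.2 and 22.8 FPKM in the controls and 1.26, 1.97, 5.37 and 4.46 FPKM with follistatin. The controls differed among themselves by more than 2-fold and all lay above every follistatin library, 11.8-fold higher on average (log2 fold change -3.24 ± 0.41, adjusted p = 0.011, up to 0.0555 with 1 library left out). Atf4 itself had means of 99.1 and 106 FPKM (adjusted p = 0.681), Ddit3, which encodes CHOP, 19.8 and 27.05 FPKM (adjusted p = 0.216), and Xbp1 26.7 and 32.96 FPKM (adjusted p = 0.162; all 3 named after their values were seen). No gene of ER-associated degradation passed among 18 tested, with 2 higher and 2 lower before adjustment. Of 17 genes of amino acid synthesis and other ATF4 targets, only Stbd1 passed, a glycogen-binding protein described below.

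The promoter window of Chac1 is shown for the element at which ATF4 is known to act with C/EBP partners, TTGCATCA, in capitals.
Chac1 (chr2:119351028-119351077, plus strand): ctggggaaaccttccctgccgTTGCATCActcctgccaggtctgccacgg
These letters begin 193 bases before the RefSeq start. They occur in 0.895% of all RefSeq promoters. Among called genes with a promoter, 2 of the 50 that fell (Chac1 and Plekhh3) and none of the 76 that rose hold them.

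Genes of the translation machinery were mostly a little higher, with few calls, as over all genes tested (1.49% called). Of 78 tested cytosolic ribosomal protein genes 60 were above 0 and the median was 0.12, but none passed at an adjusted p under 0.05 by limma; 13 were higher and 2 lower before adjustment. Of the named members, Rpl15 had means of 35.1 and 43.9 FPKM (adjusted p = 0.102) and Rpl5 62.9 and 76.6 FPKM (adjusted p = 0.123). Leaving out 1 library moved the list's median between 0.05 and 0.17, to 0.05 without control replicate 1 and 0.06 without follistatin replicate 2. Of 36 genes of ribosome biogenesis and RNA polymerase I, 30 were above 0 with a median of 0.09, none passed and 9 were higher at an unadjusted p under 0.05; Nop16 had an adjusted p of 0.0723 and Nolc1 of 0.181. Ribosomal protein genes have many processed copies in the genome, and how the authors' counting split reads between them is not given.

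Pabpc1, the main cytoplasmic poly(A)-binding protein, was the only one of 36 translation factors to pass. It was at 35.9, 38.04 and 41.6 FPKM in the controls and 68.1, 68.4, 61.5 and 56.4 FPKM with follistatin, with no overlap, and rose 1.65-fold (log2 fold change 0.71 ± 0.09, adjusted p = 0.011, up to 0.0569 with 1 library left out). Aimp2, a scaffold of the complex that holds several aminoacyl-tRNA synthetases, was at 143, 139 and 132 FPKM and 252, 213, 221 and 237 FPKM. Its 1.67-fold rise held in all 7 fits (log2 fold change 0.73 ± 0.07, adjusted p = 0.00409), and the other 21 genes on the synthetase list did not pass. Npm3, a nucleolar histone chaperone (named after its values were seen), rose 1.76-fold to 11.1 ± 1.297 FPKM (adjusted p = 0.0201, up to 0.0965).

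Genes that make polyamines and the methyl donor S-adenosylmethionine rose in 3 of 18 tested, none fell, 15 were above 0 and the median was 0.13. Odc1, the rate-limiting enzyme of polyamine synthesis, was at 33.1, 29.5 and 32.1 FPKM in the controls and 48.7, 41.6, 44.8 and 43.3 FPKM with follistatin, a 1.41-fold rise without overlap (log2 fold change 0.49 ± 0.08, adjusted p = 0.0222, up to 0.102). Azin1, which shields Odc1 from its inhibitor antizyme, rose 1.72-fold from 16.5 ± 2.19 to 28.3 ± 3.96 FPKM (adjusted p = 0.0271, up to 0.114). Mat2a, which makes S-adenosylmethionine, was at 80.9, 81.9 and 81.2 FPKM in near-identical controls and 119.8, 121, 98.9 and 123 FPKM with follistatin. Follistatin replicate 3 stood below the other follistatin libraries and above the controls, and the rise was 1.42-fold (adjusted p = 0.0285, up to 0.121). Prmt1, an arginine methyltransferase that uses this methyl donor and is on the chromatin list, rose 1.45-fold to 98.9 ± 5.86 FPKM (adjusted p = 0.0183, up to 0.0965). Rpia, an enzyme of the pentose phosphate pathway, rose 1.35-fold (adjusted p = 0.0373, up to 0.16), 1 of 14 on its list. Rpia passed in none of the leave-one-out fits.

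Genes of protein breakdown moved in both directions. Of 31 tested autophagy genes 5 were above 0, the median was -0.12 (-0.07 without control replicate 3), none rose, and Ulk1 and Sqstm1 fell. Ulk1, the kinase that starts autophagosome formation, was at 23.4, 21.3 and 20.4 FPKM in the controls and 12.7, 12.97, 13.4 and 12.8 FPKM with follistatin. The follistatin libraries were within 1 FPKM of each other and clear of the controls, 1.67-fold lower (log2 fold change -0.70 ± 0.07, adjusted p = 0.0054), and the call held in all 7 fits. Sqstm1, the cargo receptor p62, fell 1.34-fold from 279 ± 10.6 to 208 ± 7.79 FPKM (adjusted p = 0.0133, up to 0.077). Ctsd, a lysosomal protease, fell 1.33-fold from 406 ± 6.22 to 306 ± 13.6 FPKM (adjusted p = 0.0133, up to 0.0802), the one called gene of 22 in the lysosome list.

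Trim63, the muscle ubiquitin ligase MuRF1, fell as the only one of 22 tested FoxO factors and atrophy ligases to pass; 7 of the 22 were above 0 and the median was -0.09. It was at 139.5, 130.2 and 128 FPKM in the controls and 98.6, 87.4, 90.3 and 97.04 FPKM with follistatin, 1.42-fold lower without overlap (log2 fold change -0.50 ± 0.07, adjusted p = 0.013, up to 0.0665 with 1 library left out). Fbxo32, the ligase atrogin-1, was at 47.2, 33.3 and 49.9 FPKM and 24.00, 21.4, 15.4 and 30.3 FPKM. Its groups did not overlap either, but both were spread, and at -0.92 ± 0.22 on the log2 scale it did not pass (adjusted p = 0.0961). The authors' Cuffdiff test called Fbxo32 lower (q = 0.00191). Foxo1, a factor known to drive both ligases, had means of 5.06 and 4.77 FPKM (adjusted p = 0.843). None of 34 proteasome genes passed, with 1 higher and 5 lower before adjustment, and none of 17 calpains and caspases, with 1 and 1.

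Adaptors of the Cullin-5 and Cullin-3 ubiquitin ligases also changed. Asb2, a Cullin-5 adaptor of muscle, was at 125, 111 and 118 FPKM in the controls and 31.7, 36.6, 33.2 and 39.9 FPKM with follistatin. The groups were tight and widely separated, 3.34-fold lower (log2 fold change -1.72 ± 0.09, adjusted p = 0.00012), and the call held in all 7 fits. Of the 20 tested genes of this family and Cullin-5, Asb15 also fell (1.602-fold, adjusted p = 0.0133, up to 0.0753) and Asb5 rose (1.38-fold, adjusted p = 0.0319, up to 0.137). Klhl21, a Cullin-3 adaptor, fell 1.601-fold from 60.1 ± 1.44 to 37.6 ± 4.41 FPKM (adjusted p = 0.014, up to 0.0735), the one called gene of 19 muscle kelch-like genes. Other ubiquitin ligases that rose, on no list and named after their values were seen, were Trim35 (from 49.2 ± 1.94 to 85.9 ± 2.44 FPKM, adjusted p = 0.00146, called in all 7 fits), Nedd4l (1.83-fold, adjusted p = 0.0133, up to 0.0735) and Rnf144b (1.74-fold, adjusted p = 0.0229, up to 0.114).

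**Figure D4:**
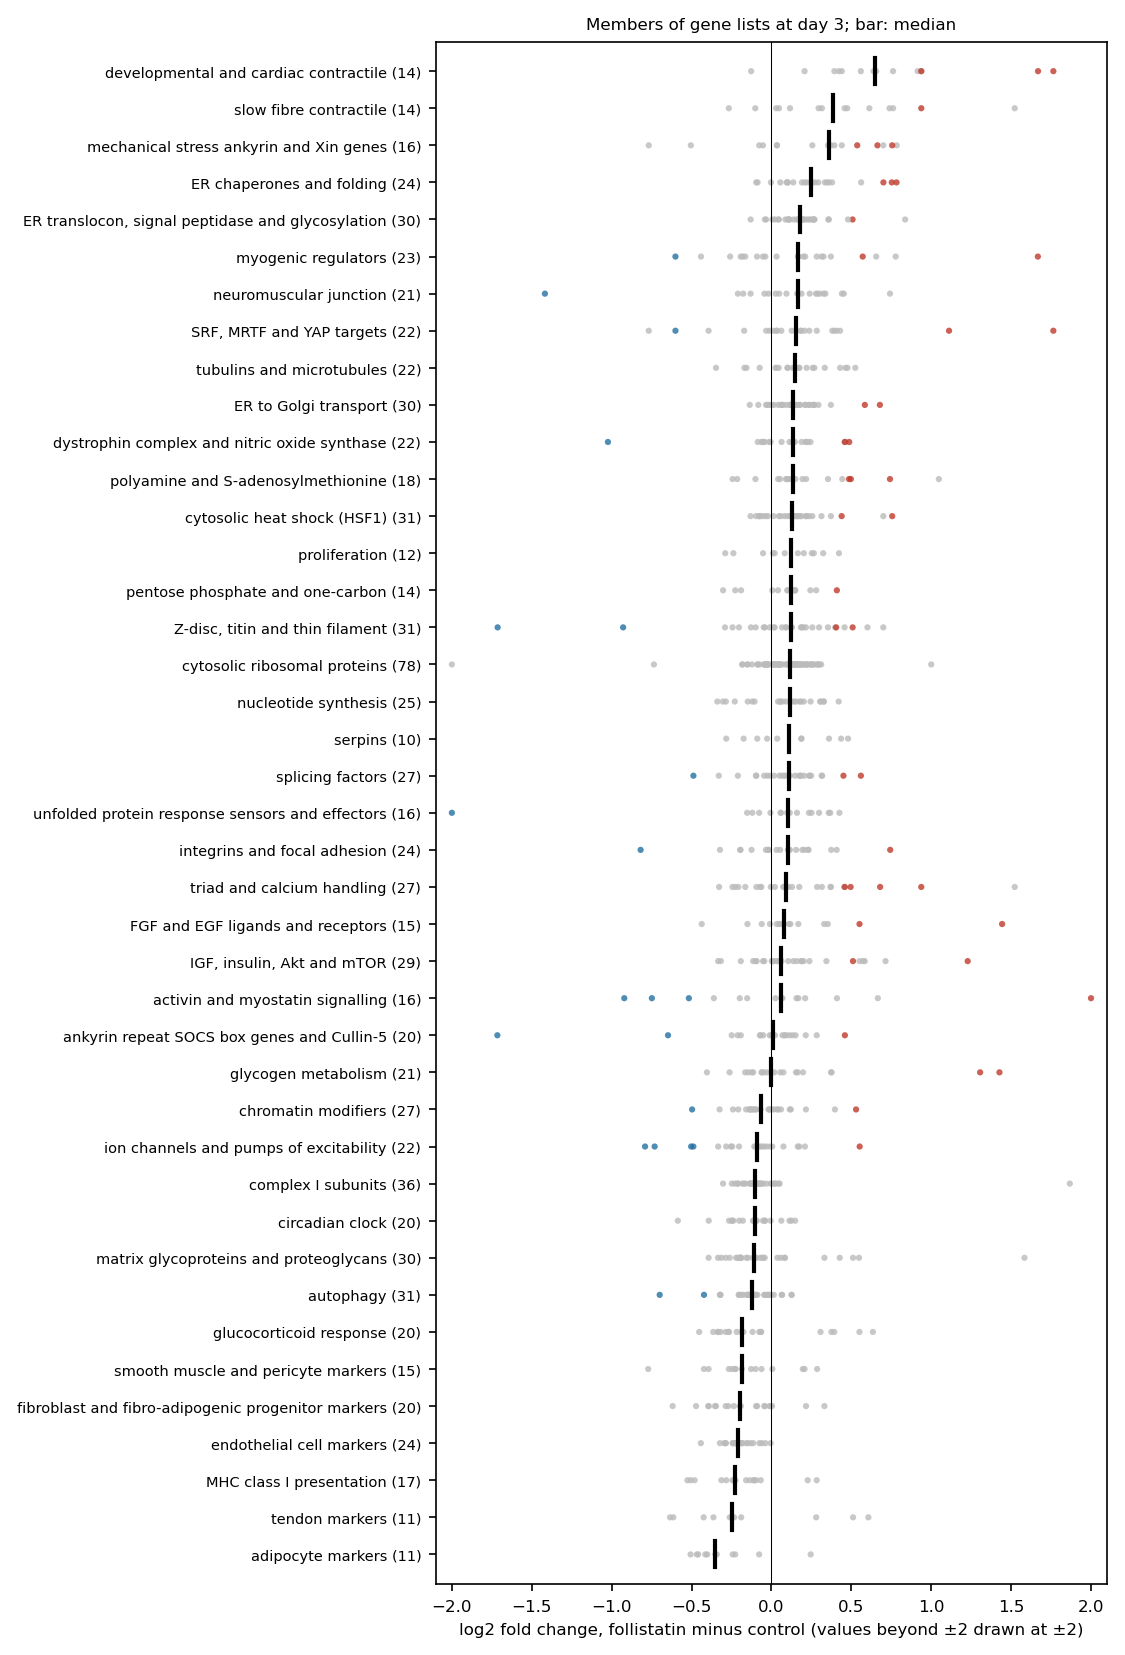
Log2 fold change (follistatin minus control, x axis, values beyond 2 in either direction drawn at 2) of the members of 41 gene lists with at least 10 tested genes and either a median of at least 0.1 in size or 2 called members; the number tested is in parentheses, red and blue points passed as higher and lower, and the black bar is the median. Developmental contractile genes have the highest median at 0.65, and adipocyte markers the lowest at -0.35 with no called member.

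In insulin and growth factor signalling, Irs1 and Ddit4l rose among 29 tested genes of IGF, Akt and mTOR, and none fell. Irs1, the substrate through which insulin and IGF receptors reach PI3-kinase, was at 10.6, 12.4 and 13.01 FPKM in the controls and 31.7, 26.3, 32.5 and 27.5 FPKM with follistatin. Every follistatin library exceeded the highest control by at least 2-fold, and the mean was 2.46-fold higher (log2 fold change 1.23 ± 0.11, adjusted p = 0.00222; called in all 7 fits). Ddit4l, an inhibitor of mTORC1 also called REDD2, rose 1.43-fold from 93.7 ± 2.31 to 134 ± 9.47 FPKM (adjusted p = 0.0133, up to 0.0709). Igf1 had means of 5.04 and 6.03 FPKM and did not pass (adjusted p = 0.549). Of 15 FGF and EGF ligands and receptors, 2 rose: Fgf6, an FGF made mainly by muscle, and Egf. Fgf6 was at 2.31, 1.92 and 1.89 FPKM in the controls and 9.71, 4.36, 7.798 and 8.18 FPKM with follistatin, with follistatin replicate 2 nearest to the controls, a 3.68-fold rise (adjusted p = 0.0181, up to 0.082). Egf rose 1.51-fold to 17.3 ± 0.897 FPKM (adjusted p = 0.0131, up to 0.0622).

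Both called genes among 21 of glycogen metabolism rose, and the list's median was 0.00. Stbd1, which binds glycogen and tethers it to membranes, was at 27.4, 30.5 and 31.1 FPKM in the controls and 77.5, 76.6, 77.4 and 67.8 FPKM with follistatin. Follistatin replicate 4 was the lowest of its group and still more than 2-fold above every control; the rise was 2.52-fold (log2 fold change 1.31 ± 0.08, adjusted p = 0.000245; called in all 7 fits). Ppp1r3c, which brings protein phosphatase 1 to glycogen, was at 39.5, 35.6 and 45.2 FPKM and 139, 130.2, 83.2 and 93.2 FPKM. The follistatin libraries split into a higher and a lower pair, both above the controls, and the rise was 2.78-fold (log2 fold change 1.43 ± 0.18, adjusted p = 0.011, up to 0.0599 with 1 library left out).

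Of 20 genes of glucose uptake and the pyruvate switch, Tbc1d1 fell and none rose. Tbc1d1, a Rab GTPase-activating protein that holds back movement of the glucose transporter GLUT4, was at 30.7, 33.1 and 32.5 FPKM in the controls and 12.9, 17.01, 15.2 and 15.6 FPKM with follistatin. No library overlapped, and the mean was 2.11-fold lower (log2 fold change -1.04 ± 0.10, adjusted p = 0.0029; called in all 7 fits). Sort1, a sorting receptor of GLUT4 vesicles (named after its values were seen), rose 1.605-fold from 17.3 ± 1.53 to 27.8 ± 2.08 FPKM (adjusted p = 0.0131, up to 0.0615). Prkag2, a regulatory subunit of the energy sensor AMPK, rose 1.98-fold from 7.37 ± 1.03 to 14.6 ± 1.96 FPKM (adjusted p = 0.0142, up to 0.0796), 1 of 14 genes on the AMPK list. None of 23 glycolysis genes passed, with 3 higher and 2 lower before adjustment.

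Genes of developing and slow muscle sarcomeres were mostly higher with follistatin. Among 14 developmental and cardiac contractile genes, 3 rose, 13 were above 0 and the median was 0.65. Among 14 slow fibre genes 1 rose, 12 were above 0 and the median was 0.39. The slow fibre gene that rose, Casq2, is on both lists and is also 1 of the 3. Leaving out 1 library moved these medians between 0.48 and 0.97 and between 0.23 (without follistatin replicate 2) and 0.47. The slow fibre markers Myh7, Myl2 and Tnnt1 overlapped between the groups. In the controls they were at 0.487 to 1.56, 5.58 to 7.82 and 11.3 to 26.3 FPKM. With follistatin they were at 0.497 to 2.06, 3.56 to 11.2 and 15.8 to 51.3 FPKM. Actc1, the cardiac actin that skeletal muscle makes in development, was at 265, 190.3 and 267 FPKM in the controls and 1059, 790.1, 747 and 692 FPKM with follistatin. Every follistatin library was more than 2-fold above every control, replicate 1 highest, with a 3.41-fold higher mean (log2 fold change 1.76 ± 0.17, adjusted p = 0.00338; called in all 7 fits). Mybph, a myosin-binding protein, was at 16.7, 22.2 and 24.3 FPKM and 58.7, 88.8, 88.1 and 47.7 FPKM, 3.36-fold higher (adjusted p = 0.0133, up to 0.0658). It shares 49.9% of its exon bases with Adora1 on the opposite strand, which had 2.84, 3.06 and 3.501 FPKM and 8.84, 12.4, 11.6 and 6.79 FPKM, 3.16-fold higher (adjusted p = 0.0128, up to 0.0658), so the rises of this pair cannot be told apart.

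Casq2, the calsequestrin of cardiac and slow muscle, was at 27.8, 35.4 and 36.2 FPKM in the controls and 69.3, 73.9, 70.4 and 46.2 FPKM with follistatin. Follistatin replicate 4 stood apart near the controls, and the rise was 1.96-fold (adjusted p = 0.0373, up to 0.146). Myh3, the embryonic myosin (named after its values were seen), had means of 25.4 ± 16.6 and 48.96 ± 28.4 FPKM and did not pass (adjusted p = 0.397). Of 15 fast fibre genes, Mylk2 fell and 4 were above 0. Mylk2, the kinase that phosphorylates the fast myosin light chain, was at 471, 480.2 and 478 FPKM in the controls and 194, 237, 236 and 248 FPKM with follistatin, 2.08-fold lower over very even controls (log2 fold change -1.06 ± 0.09, adjusted p = 0.00222; called in all 7 fits). Its substrate Mylpf had means of 12761 and 15306 FPKM (adjusted p = 0.116) and Myh2, a fast oxidative myosin, 99.9 and 80.8 FPKM (adjusted p = 0.481); neither passed.

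At the Z-disc and along the filaments, 2 of 31 tested genes rose and 2 fell. The cytoskeletal adaptors Pdlim3 and Synpo2l rose 1.43-fold and 1.33-fold (adjusted p = 0.0271 and 0.0265, up to 0.114 and 0.121). Igfn1, a large Z-disc protein, was at 11.1, 7.11 and 4.92 FPKM in the controls and 1.39, 1.94, 1.38 and 1.49 FPKM with follistatin. Control replicate 1 was more than 2-fold above replicate 3, yet all controls exceeded the follistatin libraries, 4.96-fold on average (log2 fold change -1.71 ± 0.22, adjusted p = 0.011, up to 0.0555). Lmod2, a leiomodin that sets the length of thin filaments, fell 1.92-fold from 70.9 ± 6.37 to 36.95 ± 5.03 FPKM (adjusted p = 0.011, up to 0.0563). Among 16 ankyrin repeat and Xin genes that respond to mechanical stress, Xirp1 (Xin), the small heat shock protein Hspb8 and Murc (cavin-4) rose, none fell and the median was 0.36. Hspb8 was at 168, 168 and 209 FPKM in the controls and 297, 311, 305 and 309.9 FPKM with follistatin; the follistatin values were nearly equal and above all controls, 1.68-fold (log2 fold change 0.76 ± 0.08, adjusted p = 0.00641; called in all 7 fits). Xirp1 and Murc rose 1.63-fold and 1.46-fold (adjusted p = 0.0373 and 0.0133, up to 0.143 and 0.0709).

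Of 22 tested genes of the actin-regulated factor SRF, its partner MRTF and the growth regulator YAP, Actc1 and Abra rose and Tead1 fell. The median was 0.15, and 0.06 without follistatin replicate 2. Abra, also called STARS, binds actin and frees the SRF partner MRTF, and was at 49.1, 83.6 and 52.00 FPKM in the controls and 128, 133, 157 and 108 FPKM with follistatin. Control replicate 2 was the highest control and below every follistatin library; the rise was 2.14-fold (adjusted p = 0.0299, up to 0.123). Tead1, a DNA-binding partner of YAP, fell 1.53-fold to 23.9 ± 3.09 FPKM and passed in none of the leave-one-out fits (adjusted p = 0.0497, up to 0.183). Windows with the SRF-binding CArG box in capitals are shown for 3 genes whose calls were among the largest.
Actc1 (chr2:114052892-114052943, minus strand): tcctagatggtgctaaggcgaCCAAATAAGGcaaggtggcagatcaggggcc
Stbd1 (chr5:92602994-92603045, plus strand): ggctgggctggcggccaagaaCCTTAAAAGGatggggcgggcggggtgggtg
Asb2 (chr12:103356035-103356086, minus strand): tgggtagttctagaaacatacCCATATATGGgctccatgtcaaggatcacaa
The first 2 genes rose and Asb2 fell, so the same box stood before genes called in both directions. It occurs in 1.63% of all RefSeq promoters. Among called genes with a promoter, 5 of 76 that rose (Actc1, Asb5, Ergic1, Npm3 and Stbd1) and 1 of 50 that fell hold it.

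The other motifs searched in the same windows gave the following shares of promoter windows and numbers of called genes. The site of MEF2 factors is in 3.19% of all promoters, in 8 of 76 genes that rose and in 0 of 50 genes that fell. The E-box CAGCTG is in 16.3%, 19 of 76 and 20 of 50, and the MCAT site CATTCC, which TEAD factors bind, in 14.7%, 17 of 76 and 7 of 50. The Smad letters CAGACA are in 21.04%, 16 of 76 and 13 of 50, and the palindromic Smad element GTCTAGAC in 0.213%, 0 of 76 and 2 of 50 (Mss51 and Reep1). The cyclic AMP element TGACGTCA is in 1.79%, 2 of 76 and 1 of 50, and the second ER stress element, ATTGG and CCACG with any 1 base between, in 0.0365%, 0 of 76 and 0 of 50. Such a match describes the letters in the window, and binding was not measured here.

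Of 23 myogenic regulators Myf6 and Tceal7 rose, Tead1 fell and the median was 0.17 (0.10 without either control replicate 2 or follistatin replicate 2). Myf6 encodes MRF4, the myogenic factor most abundant in adult fibres, and was at 61.5, 66.4 and 62.1 FPKM in the controls and 96.1, 98.4, 91.8 and 91.97 FPKM with follistatin. Both groups were tight, and the rise of 1.49-fold held in all 7 fits (log2 fold change 0.57 ± 0.06, adjusted p = 0.00593). Mamstr, a coactivator of MEF2 (named after its values were seen), rose 1.62-fold to 19.5 ± 2.22 FPKM (adjusted p = 0.0207, up to 0.107). None of 15 satellite cell genes passed, with 2 higher and 1 lower before adjustment, nor any of 12 proliferation genes, with 1 and 1.

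The small X-linked Tceal and Bex genes had 3 of 6 tested members called, all higher. Tceal7 was at 13.2, 11.1 and 18.1 FPKM in the controls and 79.4, 27.2, 43.3 and 48.4 FPKM with follistatin, spread nearly 3-fold within the follistatin group and above all controls, 3.51-fold on average (adjusted p = 0.0463, up to 0.171). Bex1, which overlaps Tceal7 on the opposite strand by 223 exon bases, was at 6.87, 7.26 and 11.7 FPKM and 19.5, 19.6, 15.4 and 16.2 FPKM, 2.05-fold higher (adjusted p = 0.0339, up to 0.14). Tceal5 was at 7.56, 7.81 and 7.87 FPKM in near-equal controls and 17.5, 11.6, 16.4 and 17.5 FPKM with follistatin, 2.03-fold higher (adjusted p = 0.0181, up to 0.0933). Members of this family include close copies, and how the authors' counting shared reads between them is not given.

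Genes of the triad, where the surface membrane's tubules meet the calcium store, rose in 4 of 27 tested and fell in none: Casq2, Sypl2, Bin1 and Cav3. Of the 27, 18 were above 0 and 9 below, with 10 higher and 5 lower before adjustment. Sypl2, the synaptophysin-like mitsugumin of triads, was at 152, 139 and 147 FPKM in the controls and 248, 211, 245 and 235 FPKM with follistatin, a 1.61-fold rise with no overlap (log2 fold change 0.68 ± 0.07, adjusted p = 0.00619; called in all 7 fits). Bin1, which shapes the tubules, was at 233, 224 and 249 FPKM and 335, 343, 325 and 326 FPKM, 1.41-fold higher (adjusted p = 0.00896, up to 0.0534). Cav3, the muscle caveolin, rose 1.39-fold (adjusted p = 0.0463, up to 0.169). Mrln, a small peptide that inhibits the calcium pump of the store, is on no list and fell 1.899-fold from 95.1 ± 10.02 to 50.1 ± 6.498 FPKM (adjusted p = 0.0101, up to 0.0534).

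Ion channels and pumps of the fibre surface went mostly the other way, with 4 of 22 lower, 1 higher and a median of -0.09 (-0.14 without control replicate 2). Kcnj11, the pore of the ATP-sensitive potassium channel, was at 44.5, 46.9 and 44.2 FPKM in the controls and 21.6, 28.1, 27.3 and 26.2 FPKM with follistatin, 1.75-fold lower without overlap (log2 fold change -0.79 ± 0.10, adjusted p = 0.00946, up to 0.0516). Kcna7, a voltage-gated potassium channel, fell 1.67-fold (adjusted p = 0.0184, up to 0.0753).

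In the dystrophin complex 2 of 22 genes rose, Dtna and Cav3, and 1 fell. Nos1, the neuronal nitric oxide synthase that the complex anchors, was at 24.4, 27.5 and 25.6 FPKM in the controls and 11.3, 11.8, 13.95 and 11.9 FPKM with follistatin. The highest follistatin library was well under the lowest control, 2.11-fold lower on average (log2 fold change -1.02 ± 0.09, adjusted p = 0.00232; called in all 7 fits). Dtna, alpha-dystrobrevin, rose 1.41-fold (adjusted p = 0.0361, up to 0.149). At the neuromuscular junction Prima1, the anchor of acetylcholinesterase, fell as the only one of 21: it was at 3.39, 5.61 and 2.38 FPKM and 0.666, 0.958, 0.486 and 0.826 FPKM, 5.16-fold lower at low levels (adjusted p = 0.0222, up to 0.0991).

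Some genes of the cell surface and of the folding of cytosolic proteins were also called. Of all genes tested, 1.49% were called. Itgb1bp2, the integrin-binding chaperone melusin, was at 115, 127 and 131 FPKM in the controls and 202, 219, 207 and 204 FPKM with follistatin, 1.68-fold higher (log2 fold change 0.74 ± 0.07, adjusted p = 0.00232; called in all 7 fits). Itgb5, an integrin beta subunit, fell 1.804-fold from 34.3 ± 2.76 to 18.99 ± 1.64 FPKM (log2 fold change -0.82 ± 0.09, adjusted p = 0.00619; called in all 7 fits); these were the 2 called genes of 24 in integrins and focal adhesion. Of 31 cytosolic heat shock genes Hspb8 and Cct5, a subunit of the chaperonin that folds actin and tubulin, rose, the latter 1.36-fold (adjusted p = 0.0268, up to 0.121), and 23 were above 0.

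Mitochondrial genes had few calls at day 3, as had all genes tested (1.49% called). None of 84 genes of the respiratory complexes and ATP synthase passed by limma, 20 were above 0, the median was -0.09, and 1 was higher and 6 lower before adjustment. That median was -0.01 without control replicate 2 and -0.04 without follistatin replicate 1. None passed among 20 genes of the citric acid cycle (0 higher, 2 lower before adjustment) or 29 of fatty acid uptake and oxidation (1 higher, 2 lower). The 36 genes of the mitochondrial ribosome and import leaned the other way, 30 above 0 with a median of 0.06 (0.08 to 0.11 with 1 library left out) and none called. Mss51, a muscle protein known to restrain oxidative metabolism, was at 5.005, 5.93 and 9.59 FPKM in the controls and 0.576, 1.24, 0.841 and 1.61 FPKM with follistatin, 6.41-fold lower without overlap (log2 fold change -1.91 ± 0.24, adjusted p = 0.0101; called in all 7 fits). Vdac1, a channel of the outer membrane, fell 1.26-fold from 933 ± 19.3 to 739.8 ± 25.6 FPKM (adjusted p = 0.0222, up to 0.107). Mb, myoglobin, had means of 3728 ± 721 and 2232 ± 342 FPKM and did not pass (adjusted p = 0.0647).

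Single genes were called in other metabolic lists. Tfrc, the transferrin receptor that takes up iron, was at 47.2, 90.4 and 57.5 FPKM in the controls and 163, 149, 141 and 181 FPKM with follistatin, 2.44-fold higher (adjusted p = 0.0181, up to 0.073), as 1 of 25 iron and haem genes. Control replicate 2 was the highest of the controls and lay below every follistatin library. Txnrd1, the cytosolic thioredoxin reductase, fell 1.36-fold to 29.4 ± 0.519 FPKM (adjusted p = 0.0229, up to 0.113), 1 of 30 in the glutathione and NRF2 list. Txnrd1 passed in none of the leave-one-out fits. Nmrk2, a kinase of nicotinamide riboside in muscle, rose 2.196-fold from 98.3 ± 18.6 to 216 ± 31.1 FPKM (adjusted p = 0.011, up to 0.0534). Car14, a membrane carbonic anhydrase, rose 2.13-fold to 47.4 ± 4.01 FPKM (adjusted p = 0.0123, up to 0.0581).

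In the nucleus, Sun2, which links the nuclear envelope to the cytoskeleton, fell 1.44-fold (adjusted p = 0.0133, up to 0.0753), 1 of 19 on its list. The histone demethylase Kdm6b fell 1.51-fold (adjusted p = 0.0343, up to 0.146) and, with Prmt1, was called among 27 chromatin modifiers. Kdm6b passed in none of the leave-one-out fits. Of 27 splicing factors, Rbm20, which regulates titin splicing, fell 1.43-fold to 15.9 ± 1.08 FPKM (adjusted p = 0.0201, up to 0.0933). Mbnl2 and the muscle kinase Srpk3 rose 1.38-fold and 1.49-fold (adjusted p = 0.0253 and 0.0222, up to 0.118 and 0.0985).

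Several of the largest called changes fell on genes of no list. Among those that rose were Amot, an angiomotin that binds YAP (17.8 ± 1.05 to 43.4 ± 5.54 FPKM, 2.44-fold, adjusted p = 0.00222), Tnfaip2 (2.17-fold, 0.00593) and the leucine-rich repeat gene Lrrc30 (1.93-fold, 0.00619), all called in all 7 leave-one-out fits. Npr3, the clearance receptor of natriuretic peptides, Rftn1, Tspan9 and Lingo3 rose 2.33-fold, 2.24-fold, 2.097-fold and 2.06-fold (adjusted p up to 0.0658, 0.0933, 0.137 and 0.0715 with 1 library left out). Among those that fell were Mpp3, a scaffold protein of the MAGUK family (9.13 ± 0.922 to 3.51 ± 0.272 FPKM, 2.601-fold, adjusted p = 0.00222), and Rab11fip3, an effector of recycling endosomes (2.09-fold, 0.0029), both called in all 7 fits. Apol6, Pnrc1 and the tyrosine phosphatase Ptpn3 fell 2.16-fold, 1.83-fold and 1.66-fold (adjusted p up to 0.088, 0.0555 and 0.0619). Smaller changes that also held in all 7 fits, named after their values were seen, were rises of Ank1 (1.51-fold), Ehd4 (1.601-fold) and Dupd1 (1.54-fold) and falls of Art1 (1.49-fold) and Pdzrn3 (1.502-fold). The called gene Mir6935 is listed at 0 in all 3 controls and at 404, 290.5, 221 and 376 FPKM with follistatin; it lies wholly inside an exon of Actg1, so no fold is given for it.

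Markers of other cell types in the muscle were mostly a little lower with follistatin, and none passed by limma at an adjusted p under 0.05. All 24 tested endothelial markers were below 0, with a median of -0.21 and 7 lower at an unadjusted p under 0.05; their summed level was 1006 to 1140 FPKM in the controls and 862 to 936 FPKM with follistatin. The endothelial cadherin Cdh5 was at 39.02, 41.6 and 38.99 FPKM and 32.2, 33.9, 28.8 and 31.98 FPKM, with no overlap (adjusted p = 0.087), and Pecam1 had means of 34.7 and 28.2 FPKM (adjusted p = 0.119). Of 15 smooth muscle and pericyte markers 4 were above 0, with a median of -0.19 and sums of 1308 to 1340 FPKM in the controls and 1122 to 1304 FPKM with follistatin; Kcnj8, of pericytes, had means of 13.7 and 10.03 FPKM (adjusted p = 0.177). Of 20 fibroblast and fibro-adipogenic progenitor markers 3 were above 0, with a median of -0.20 (-0.09 without follistatin replicate 4) and sums of 893 to 1110 FPKM and 789 to 984 FPKM; Gsn had means of 227 and 173 FPKM (adjusted p = 0.0949). No listed marker of these 3 types was at 0 in all 7 libraries. Sums here and in the next paragraph are over all listed markers with values, whether tested or not. In whole muscle, fewer cells of a type and less RNA per cell cannot be told apart.

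Adipocyte markers were below 0 in 10 of 11 tested, with a median of -0.35 that leaving out 1 library moved between -0.51 and -0.05 (without control replicate 1); their sums overlapped, at 1714 to 2354 FPKM in the controls and 1866 to 2733 FPKM with follistatin. Macrophage markers had a median of 0.02 over 17 tested, from -0.15 to 0.21 with 1 library left out, with sums of 208 to 314 FPKM and 195 to 442 FPKM. Genes of antigen presentation by MHC class I were below 0 in 15 of 17 tested, with a median of -0.23, none called, and 1 higher and 5 lower before adjustment; Psmb9, an immunoproteasome subunit, had means of 4.97 and 3.12 FPKM (adjusted p = 0.142). The part of these cell types in the falls described above was not tested.

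Across the 49 lists without a called member, 936 genes were tested, of which 88 were higher and 87 lower before adjustment, 9.40% and 9.29%, beside 8.72% and 6.46% of all genes tested. They include the immediate early genes (21 tested, 3 higher and 2 lower at that threshold), collagens (19, 0 and 1), matrix glycoproteins (30, 4 and 3), interferon response (30, 0 and 3), cytokines and NF-kB (22, 1 and 1), glucocorticoid response (20, 3 and 3), the circadian clock (20, 0 and 4) and sterol synthesis (26, 3 and 1).

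The day 3 effect was also set against that of the later libraries, 3 control and 4 follistatin from days 7 and 14, in a fit of all 14 libraries. The difference of the effects was called for 10 of 11306 genes (0.0884%), 7 with a higher and 3 with a lower value later. Of these, 3 were also called at day 3. Fst had a log2 fold change of 4.74 at day 3 and 8.51 later (difference 3.77 ± 0.56 SE, adjusted p = 0.0322), with later means of 1.004 and 878 FPKM. Adora1 went from 1.37 to 3.41 (2.04 ± 0.30, adjusted p = 0.0322) and Tceal5 from 0.92 to 2.27 (1.35 ± 0.21, adjusted p = 0.0322). Of the 7 not called at day 3, the creatine synthesis gene Gamt had 0.33 at day 3 and 1.79 later, and the tubulin genes Tubb4b and Tuba4a had 0.05 and 0.03 at day 3 and 1.32 and 1.16 later. Nudt4, Serpine2 and Zfp180, the 3 lower ones, had 0.10, 0.19 and -0.05 at day 3 and -0.74, -0.60 and -0.76 later. Without the first control library of day 7 the count was 4.

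The later effect had the sign of the day 3 effect in 163 of the 168 called genes, and the same share over all genes tested is not given here. In the later libraries, 51.6% to 62.6% of low FPKM values matched the steps used to estimate depth. Later libraries were put at 1.48 to 4.63 times the depth of control replicate 1 of day 3. Their 10 highest genes held 11.8% to 14.6% of all FPKM with follistatin and 24.1% to 26.3% in the controls. At day 3 that share was 26.2% to 28.7%. The part of these differences in the later effects was not tested. Differences in size between the days were not called for genes such as Actc1 (1.76 and 3.80, adjusted p = 0.291), Hspa5 (0.78 and 1.52, 0.298), Chac1 (-3.24 and -2.53, 0.695), Asb2 (-1.72 and -2.18, 0.341), Ulk1 (-0.70 and -0.86, 0.583), Irs1 (1.23 and 0.64, 0.217) and Nmrk2 (1.13 and -0.13, 0.0766). A difference that was not called is not shown to be absent with this number of libraries.

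**Figure D5:**
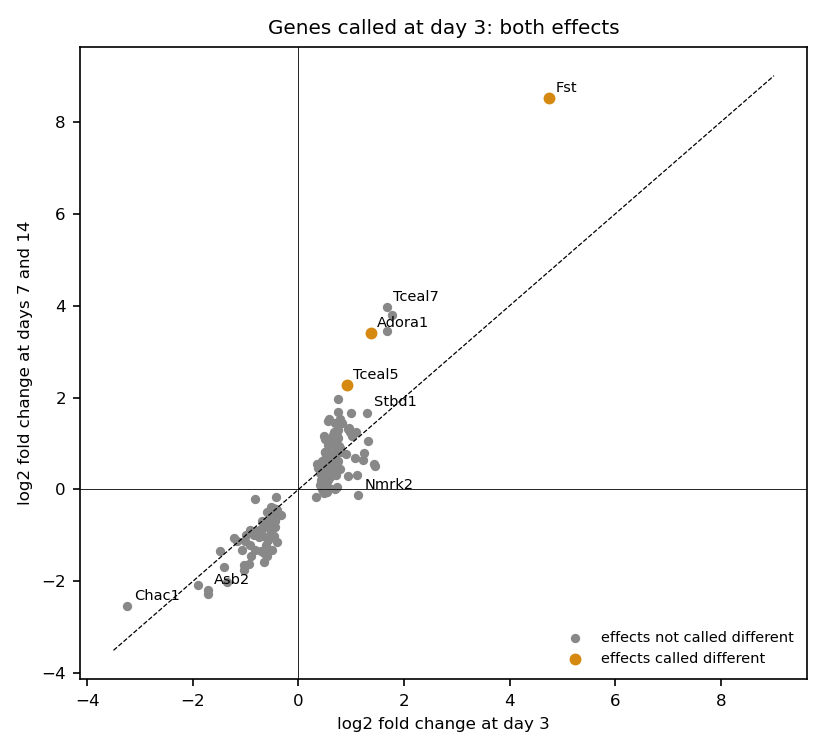
Log2 fold change (follistatin minus control) at day 3 on the x axis and at days 7 and 14 on the y axis for genes called at day 3, with equal effects on the dashed line and orange for the 3 genes whose effects were called different; Mir6935 is not drawn. Fst, Adora1 and Tceal5 lie above the line at 8.51, 3.41 and 2.27 later, and 163 of the 168 called genes have the same sign on both axes.

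In the authors' deposited table for day 3, 9625 genes were tested with Cuffdiff and 602 had a q-value under 0.05, 295 higher and 307 lower with follistatin. Of the 168 genes called by limma 160 are among the 602, which is 95.2% of the former and 26.6% of the latter. Some genes named above that did not pass by limma are also among the 602. They include Mstn (log2 fold change 0.68, Cuffdiff q = 0.00191), Fbxo32 (-0.97, 0.00191), Mb (-0.77, 0.00191) and Gsn (-0.43, 0.00191). Kcnj8 (-0.48, q = 0.0192), Cdh5 (-0.37, 0.0121), Pecam1 (-0.34, 0.0263) and Myh2 (-0.33, 0.0254) are others. Igf1 (q = 0.462) and Foxo1 (0.706) are not among them. All 602 had the same sign in the limma fit. Both tests rest on the same libraries, so the shared calls and signs are not independent evidence.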

How the data were processed

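Poly(A) RNA of the 7 day 3 libraries was compared as labelled, 3 control against 4 follistatin, and days 7 and 14 (3 control and 4 follistatin libraries) entered the comparison between days only. The authors aligned reads with TopHat to mm10 and used Cuffdiff, per the submitters' processing notes; versions and annotation are not given in the sources used here. The deposited library files hold the authors' FPKM per gene. The authors' deposited comparison tables hold FPKM means, log2 fold changes, Cuffdiff test scores, p-values and q-values. Of 24386 listed genes, 27 whose symbols had become dates were left out, as were genes the authors' tables mark HIDATA (4 at day 3 and 31 later).

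Genes averaging at least 1 FPKM were tested on log2(FPKM + 1) with limma 3.58.1, run in R 4.3.3 with lmFit and a trended eBayes. Tests were two-sided, and p-values were adjusted over all genes tested by Benjamini and Hochberg, with calls under 0.05. The fit was tested on simulated data. FPKM are not counts, so no count test was run, and absolute depth is unknown. Relative depths came from ratios of up to 6 whole reads against control replicate 1 of day 3, within 0.02 on the log2 scale. Of FPKM values under 0.5, at least 79.2% matched such ratios in the day 3 libraries. In the later libraries 51.6% to 62.6% matched, so their relative depths are less certain. The genes named are Fst, the 25 largest called rises and falls that do not overlap between groups, every called member of a list, the 2 members of each list with the smallest p, and Mstn, Igf1, Fbxo32, Trim63, Foxo1, Myh2 and Myh4, of which those that add to the account are described and a few are not reported here; others are marked as named after their values were seen. The gene lists, the rule and the comparisons were chosen with earlier results of these data known. Positions are from GENCODE M21 and promoters from RefSeq GRCm38.p6. Alternatives were another pseudocount, other filters, rescaling, quantile normalization, robust variances, a minimum change, 1 fit over all 14 libraries, a replicate block and leaving out each library. Same-numbered control and follistatin libraries did not deviate together (r = -0.048, -0.056 and -0.033 across genes), so the numbers were not used as pairs.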

Additional observations from a re-analysis of the deposited data

Results flagged for a closer look

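Among 138 genes checked, 10 had 1 follistatin library farther from the other 3 than Dixon's limit at 95% allows; chance alone gives about 1 in 20. Follistatin replicate 3 was the lowest of its group for Ostc at 29.6 FPKM, beside 34.8 to 35.8 FPKM in the other 3, Mat2a at 98.9 FPKM, Prkag2 at 11.7 FPKM and Lmod2 at 29.5 FPKM. Follistatin replicate 4 was the lowest for Alg2 at 10.7 FPKM, Prmt1 at 90.2 FPKM, Stbd1 at 67.8 FPKM and Casq2 at 46.2 FPKM. The same library was the highest for Vdac1 at 778 FPKM, beside 726 to 729 FPKM in the other 3, and for Rpia at 18.5 FPKM, beside 17.1 to 17.3 FPKM. These 10 are all called genes, whose groups do not overlap in any case. The replicate that stood apart therefore lay on its own group's side of all controls.

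The effect of follistatin differed between day 3 and the later libraries for 3 genes called at day 3, by limma's interaction test over 14 libraries with an adjusted p of 0.0322 each. The later effect exceeded that of day 3 by 3.77 (log2) for Fst, 2.04 for Adora1 and 1.35 for Tceal5. Later libraries were of days 7 and 14 together, and how preparation differed between days is not given in the sources used here.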

How the results depend on the processing

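The count of called genes at day 3 was 168 (104 higher, 64 lower) and lay between 39 and 165 when 1 library was left out, with 21 to 106 higher and 18 to 59 lower. It was 19 with a replicate block (13 higher, 6 lower), for which control and follistatin libraries of the same number were paired and follistatin replicate 4 could not be used, 266 with small RNA genes left out (165 and 101), 5 for a change of at least 1.5-fold as the null, and 602 by the authors' Cuffdiff test. Between 127 and 250 genes were called with all 14 libraries in 1 fit, genes marked HIDATA kept, a mean of at least 5 FPKM, no filter, a pseudocount of 0.1, quantile normalization, rescaling by the median ratio or robust variances. The Fst difference of 4.74 was 4.66 to 4.82 when 1 library was left out, where the exact p was 0.0667 or 0.1, the smallest those designs allow. The count of genes with a later effect different from that of day 3, 10, was 6 after rescaling and 4 without control day 7 replicate 1, and 10 to 12 otherwise.

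Of the 138 genes checked, 110 were called, and 32 were called in every leave-one-out fit. None that was called changed sign under any of these settings. This was fixed in advance except under rescaling and quantile normalization. The other settings kept each gene's fold change or compared values that do not overlap between the groups. The replicate block ended 94 of the 110 calls and leaving out control replicate 1 ended 76, with adjusted p-values no higher than 0.264 and 0.183. Of the 32 genes called in every leave-one-out fit, the block ended 20, among them Hspa5, Pdia6, Ulk1 and Nos1. The block both paired libraries and left out follistatin replicate 4, and leaving out that library alone ended 17 calls; the cause was not tested. The fit of all 14 libraries ended 38 calls, no filter 22, quantile normalization 11, rescaling 4, and a mean of at least 5 FPKM and robust variances 1 each. Of the 38 lists with a median of at least 0.1 in size, 3 changed sign under some setting: serpins (-0.03 at a mean of at least 5 FPKM), neutrophil and mast cell markers (-0.08 without follistatin replicate 3) and lymphocyte markers (-0.03 without follistatin replicate 2). No setting moved the median of all genes by 0.1. Absolute depth, and with it the counting error of genes near 1 FPKM, is unknown.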
